A study of Homo sapiens with 35 samples.

Results

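The 5 genes described here, ANKRD37, ADM, HILPDA, ANGPTL4 and VEGFA, are hypoxia-inducible targets of the transcription factor HIF1A that have been studied together with the kinase CDK8. They were picked from a list because they were higher in hypoxic control cells on these arrays, and they are 5 of the 18404 genes measured. Each had a single array row with 1 gene symbol, so the rule of keeping the row with the highest mean over all arrays left no choice to make. Because the rule used hypoxic control cells, the rise of these genes in that line is a description, and no test of it is given.

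The cells were HCT116, an established human colorectal carcinoma line, plated in McCoy's 5A medium supplemented with serum. All of them carried a short hairpin RNA, which had no target in shControl cells, CDK8 as its target in shCDK8 cells and the paralog CDK19 in shCDK19 cells. The 35 arrays fell into 14 groups in 4 experiments. Each line was measured untreated on 3 arrays (normal growth), and on 2 arrays after it had spent 24 h at 1% oxygen (hypoxia). All 3 lines were also exposed for 12 h to 5-fluorouracil, an inhibitor of thymidylate synthesis, with 2 arrays per line, beside 2 arrays of shControl cells given the solvent DMSO. In a glucose experiment of 24 h, all 3 lines were kept in low glucose DMEM with 3 arrays per line, beside 3 arrays of shControl cells kept in high glucose DMEM. One hairpin line stood for each target, so an effect of the knockdown and other properties of that line cannot be told apart. Normoxic cells of the hypoxia experiment were not analysed here, so hypoxia was set against the normal growth experiment, and oxygen and experiment cannot be told apart in that contrast.

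When oxygen falls, prolyl hydroxylases slow down, the alpha subunit HIF1A escapes degradation, pairs with ARNT and binds DNA at a short core motif near its targets. CDK8 and CDK19 are alternative kinases of the Mediator kinase module, which joins Mediator, the complex that carries signals from transcription factors to RNA polymerase II. In colorectal carcinoma the HIF program is known for switching cells toward glycolysis and for secreted factors that act on blood vessels.

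The stretch of 250 bases before the annotated start of transcription is shown for the 3 of the 5 genes that matched the RefSeq promoter table, because HIF binds the core letters ACGTG or GCGTG and the genes described are HIF targets. Capitals mark each match to ACGTG or GCGTG on either strand, so that CACGT marks ACGTG on the other strand. The build is GRCh38.p14 and all 3 genes lie on the plus strand, with ANKRD37 at chr4:185396591-185396840, ADM at chr11:10304823-10305072 and ANGPTL4 at chr19:8363905-8364154.
ANKRD37: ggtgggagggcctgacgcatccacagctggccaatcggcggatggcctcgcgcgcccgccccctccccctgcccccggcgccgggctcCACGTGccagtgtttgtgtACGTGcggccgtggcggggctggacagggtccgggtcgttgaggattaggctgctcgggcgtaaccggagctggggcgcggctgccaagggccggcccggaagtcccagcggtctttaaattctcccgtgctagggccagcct
ADM: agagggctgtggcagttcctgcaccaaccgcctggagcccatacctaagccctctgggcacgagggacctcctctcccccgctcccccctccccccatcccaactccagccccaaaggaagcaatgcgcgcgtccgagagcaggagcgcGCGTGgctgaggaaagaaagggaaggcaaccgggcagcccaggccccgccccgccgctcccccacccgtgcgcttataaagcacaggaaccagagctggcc
ANGPTL4: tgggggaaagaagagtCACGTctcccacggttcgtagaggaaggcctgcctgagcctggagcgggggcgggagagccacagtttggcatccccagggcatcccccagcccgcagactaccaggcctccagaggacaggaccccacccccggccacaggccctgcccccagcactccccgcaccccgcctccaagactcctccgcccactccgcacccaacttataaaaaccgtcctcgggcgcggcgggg
The ANKRD37 stretch held 3 matches, of which 2 overlap in 1 palindrome that starts 162 bases before the start of transcription, and the other starts 143 bases before it. The ADM stretch held 1 match, 101 bases before the start, and the ANGPTL4 stretch held 1 match on the other strand, 234 bases before the start. Of all 35116 promoters of the same length in the table, 43.2% held at least 1 such match and 7.76% at least 3. A match is a run of letters and not a measured binding site. HILPDA and VEGFA had no entry.

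All 5 genes were well above the floor of the deposited values on every array, and 0 arrays had any of them at the floor. The 75th percentile of the arrays lay between 8.96 and 9.25 on the log2 scale, and replicate arrays of a group correlated at 0.976 or above over all rows. The lowest correlation was that of the 2 hypoxic shControl arrays, and replicate 1 of them was the hypoxia array least like those of the other lines. The row that CDK8 shares with ADRA1B was 4.35-fold lower in shCDK8 than in shControl cells in normal growth and 4.07-fold lower in hypoxia. CDK19 was 2.83-fold and 2.14-fold lower in shCDK19 cells in the same conditions. On all arrays 6 of 6 epithelial, 4 of 6 fibroblast, 3 of 6 leukocyte and 2 of 5 endothelium markers were above 6 (log2). COL1A1 reached 9.82 and the endothelium marker CLDN5 8.24, while the fibroblast markers DCN and LUM and the leukocyte marker PTPRC were at or near the floor of 4.32. The mean of the 6 leukocyte markers was higher on shCDK8 arrays, 6.87 to 6.93 against 6.09 to 6.40 on shControl arrays in hypoxia. LYZ, which codes for the secreted enzyme lysozyme, was the marker that set that range, 4.89 higher on the log2 scale in hypoxic shCDK8 than in shControl cells (adjusted p = 0.00108, limma). It was the 1 of the 6 leukocyte markers called. Of the 6 fibroblast markers, COL1A1 was called, lower by 0.98 (adjusted p = 0.00874), and their mean was 6.32 to 6.36 on hypoxic shCDK8 and 6.52 to 6.83 on shControl arrays. Of the 5 endothelium markers 0 were called by limma and 0 had an unadjusted p under 0.05, with a highest mean of 6.19 on shCDK8 and 6.68 on shControl arrays. The mean of the epithelial markers was 11.85 to 11.87 on hypoxic shCDK8 arrays and 12.30 to 12.35 on shControl arrays. All 6 of them were called, in both directions: the adhesion genes CDH1 (-1.36), EPCAM (-1.13) and CLDN7 (-0.95) and the keratin KRT19 (-0.53) were lower in shCDK8 cells, and the keratins KRT18 (0.73) and KRT8 (0.45) higher. The part of these markers in the results was not tested.

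Over the 14 groups the 5 genes had 1 common feature, which was their order in hypoxia. Hypoxic shCDK19 cells held the highest level of each gene, and hypoxic shControl cells the second highest. Hypoxic shCDK8 cells came next for ANKRD37, ADM, HILPDA and ANGPTL4. For VEGFA they ranked number 6, below all 3 low glucose groups. The distance between the highest and the lowest group mean was 21.4-fold for ANGPTL4, 17.0-fold for ANKRD37, 13.9-fold for HILPDA, 13.3-fold for ADM and 4.87-fold for VEGFA. Many neighbours in the order did not differ beyond their spread: of the 13 pairs of neighbouring groups over all 14, the arrays overlapped in 9 for ANKRD37, 7 for HILPDA, 7 for ANGPTL4, 6 for VEGFA and 5 for ADM. The lowest group was not the same for each gene. It was shCDK8 cells in low glucose for ADM (8.97), shCDK8 cells in normal growth for ANKRD37 (7.48), shControl cells after 5-fluorouracil for HILPDA (8.28), and shControl cells in DMSO for ANGPTL4 (7.85) and VEGFA (9.66).

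**Figure D1:**
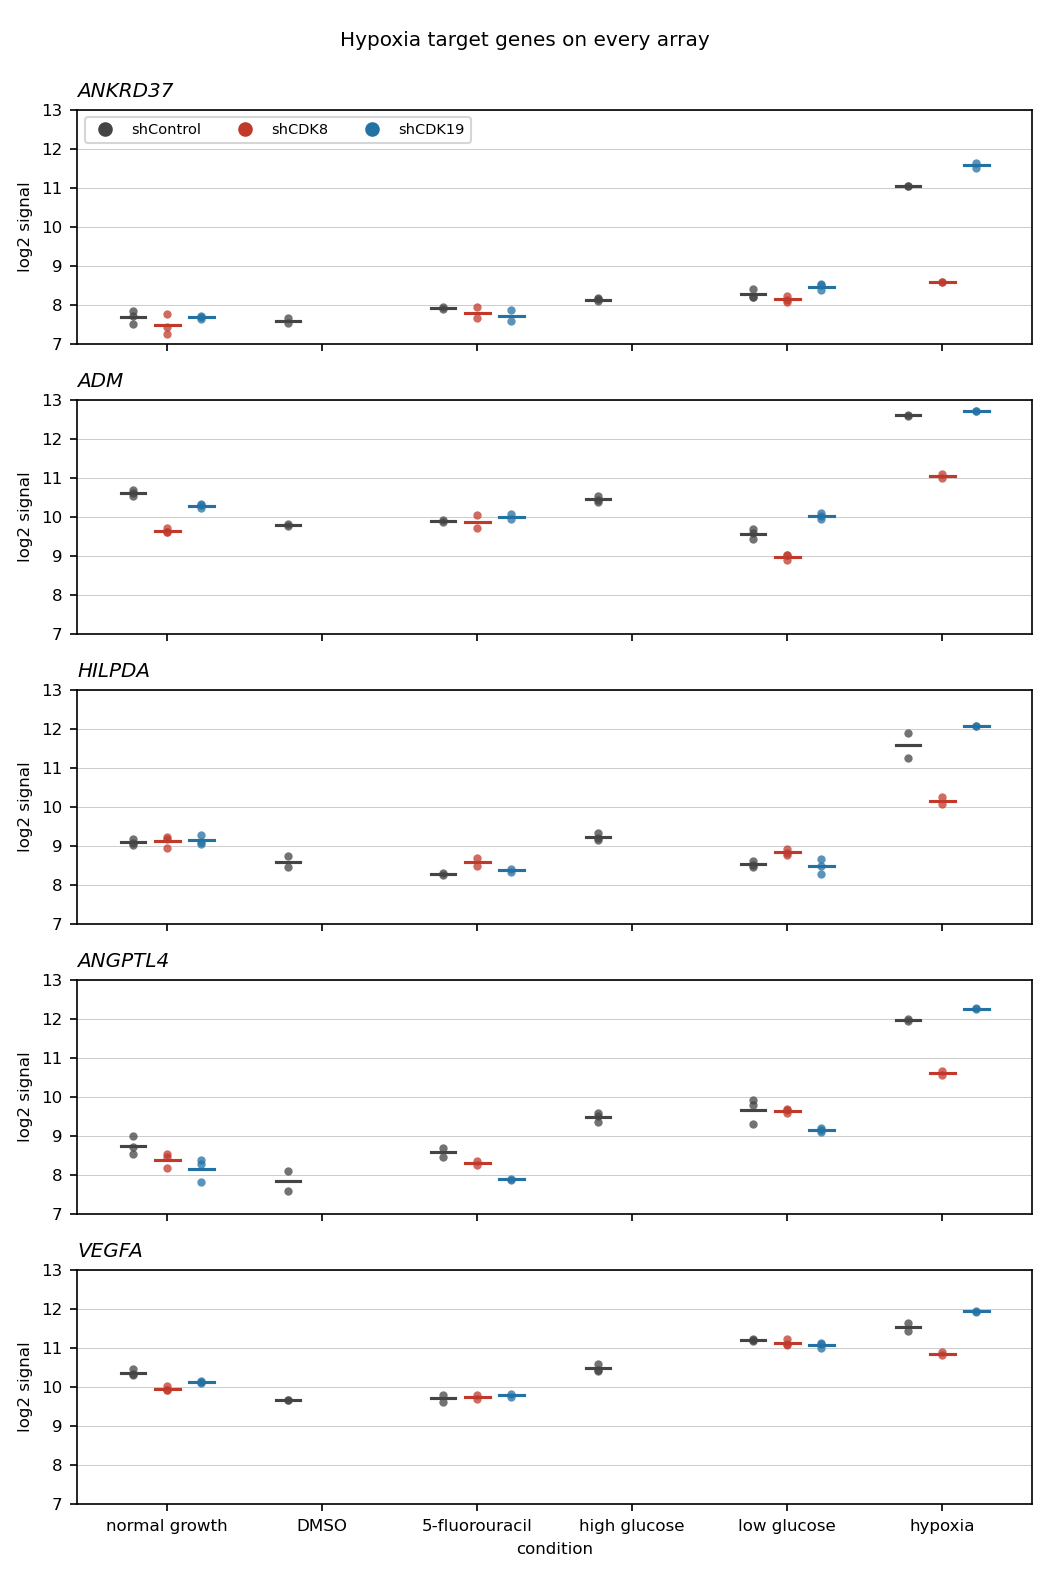
Log2 signal of each gene (vertical axis) on every array, by condition (horizontal axis) and line (colour); points are arrays and bars are group means. In hypoxia the shCDK8 arrays lie below the shControl and shCDK19 arrays in all 5 panels, and the VEGFA panel also shows the raised low glucose groups at 11.07 to 11.20.

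ANKRD37 codes for a small ankyrin repeat protein and is among the most strongly hypoxia-induced HIF1A targets in many cell types. In normal growth its log2 signal was 7.84, 7.51 and 7.72 in shControl cells, 7.26, 7.77 and 7.43 in shCDK8 cells and 7.72, 7.62 and 7.68 in shCDK19 cells. The lines overlapped there. In hypoxia it was 11.03 and 11.04 in shControl cells, 8.59 and 8.57 in shCDK8 cells and 11.51 and 11.64 in shCDK19 cells. Every line was higher in hypoxia than in normal growth, but the hypoxic shCDK8 arrays stood far closer to normal growth than to the other hypoxic arrays.

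HILPDA codes for a small protein of lipid droplets that inhibits the triglyceride lipase ATGL, and so lets droplets grow in low oxygen. In normal growth its log2 signal was 9.06, 9.03 and 9.18 in shControl cells, 8.95, 9.23 and 9.17 in shCDK8 cells and 9.29, 9.09 and 9.06 in shCDK19 cells, with full overlap of the lines. In hypoxia the shControl arrays read 11.25 and 11.90, the shCDK8 arrays 10.25 and 10.07, and the shCDK19 arrays both 12.075, with an SD of 0.00011. The shControl pair was the widest of any hypoxia pair of the 5 genes, with an SD of 0.46, and still lay above the shCDK8 pair and below the shCDK19 pair.

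ANGPTL4 codes for a secreted inhibitor of lipoprotein lipase and is a target of PPAR receptors as well as of HIF. In normal growth its log2 signal was 9.0, 8.55 and 8.71 in shControl cells, 8.19, 8.45 and 8.55 in shCDK8 cells and 8.39, 7.83 and 8.28 in shCDK19 cells. In hypoxia it was 11.95 and 11.99 in shControl cells, 10.65 and 10.56 in shCDK8 cells and 12.25 and 12.27 in shCDK19 cells. The 3 lines did not overlap in hypoxia, and the hypoxic shCDK8 arrays still lay above every array of another condition.

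ADM codes for adrenomedullin, a secreted peptide that widens blood vessels. In normal growth its log2 signal was 10.69, 10.52 and 10.62 in shControl cells, 9.71, 9.61 and 9.60 in shCDK8 cells and 10.30, 10.22 and 10.32 in shCDK19 cells. The 3 lines were already apart without hypoxia. In hypoxia it was 12.61 and 12.58 in shControl cells, 11.00 and 11.10 in shCDK8 cells and 12.70 and 12.71 in shCDK19 cells, so that the shCDK8 arrays were about as far below the others as ANGPTL4 and HILPDA were.

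VEGFA codes for the main growth factor of blood vessels. In normal growth its log2 signal was 10.45, 10.35 and 10.31 in shControl cells, 9.93, 9.92 and 10.04 in shCDK8 cells and 10.14, 10.09 and 10.13 in shCDK19 cells. The shCDK8 arrays were the lowest, with no overlap. In hypoxia it was 11.44 and 11.63 in shControl cells, 10.89 and 10.82 in shCDK8 cells and 11.94 and 11.96 in shCDK19 cells, again with no overlap.

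In shControl cells, the contrast the choice rested on, the signal in hypoxia was 10.2-fold that in normal growth for ANKRD37, 9.32-fold for ANGPTL4, 5.59-fold for HILPDA, 3.97-fold for ADM and 2.25-fold for VEGFA. Ranked by this difference among all 18404 genes, they ranked number 1, 2, 5, 18 and 77. All 5 were at least 2-fold higher, which 0.609% of genes were. VEGFA was nearest to that limit.

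In shCDK8 cells hypoxia gave smaller rises, and all 5 genes passed the test against normal growth in that line, where 3.52% of all genes were called higher (limma, adjusted p under 0.05). The rise was 1.10 ± 0.12 (SE, on the log2 scale) for ANKRD37, 1.05 ± 0.13 for HILPDA, 2.21 ± 0.17 for ANGPTL4, 1.41 ± 0.080 for ADM and 0.90 ± 0.068 for VEGFA. ANKRD37, number 1 in shControl cells, was number 29 among all genes in shCDK8 cells, while ANGPTL4 was number 2 in both. In shCDK19 cells all 5 also rose (11.1% of all genes were called higher), by 3.90 for ANKRD37, 2.93 for HILPDA, 4.10 for ANGPTL4, 2.42 for ADM and 1.83 for VEGFA. These tests share the limit that experiment and oxygen cannot be told apart.

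**Figure D2:**
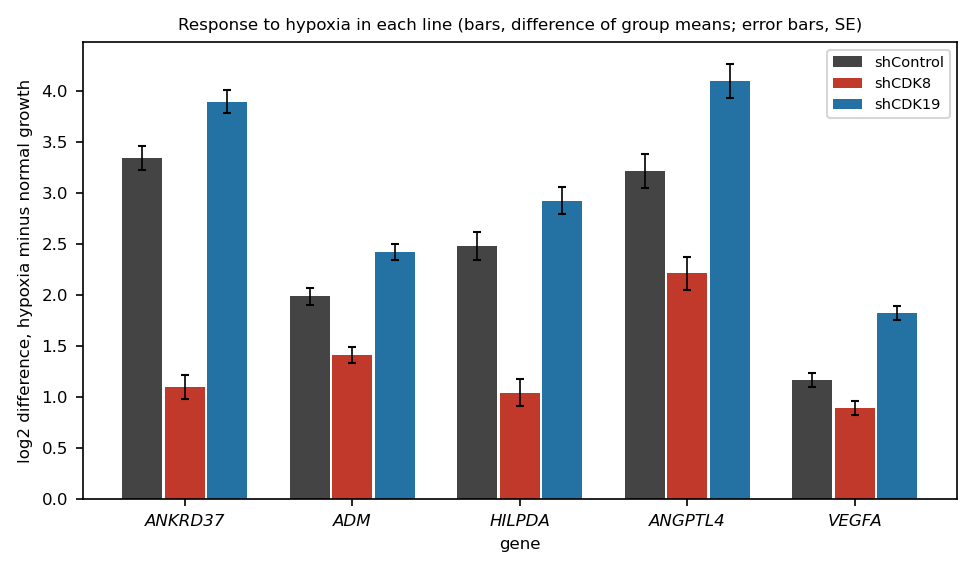
Log2 difference between hypoxia and normal growth (vertical axis) for each gene (horizontal axis) in the 3 lines; bars are differences of group means and error bars are standard errors of the fit of all 35 arrays. The shCDK8 bar is the shortest of the 3 for each gene, from 0.90 for VEGFA to 2.21 for ANGPTL4, and the shCDK19 bar is the longest.

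The hypoxia responses of the knockdown lines can be set against each other without the level of any shControl array, although the spread in the fit came from all 35 arrays, the hypoxic shControl arrays included, and the genes were picked with earlier results of these data known. All 5 responses were smaller in shCDK8 than in shCDK19 cells, where 4.72% of all genes were called lower (test of the difference of responses, limma). The difference was -2.80 ± 0.16 for ANKRD37 (log2, SE; adjusted p = 5.22e-11), and -1.88 ± 0.19 for HILPDA (adjusted p = 2.9e-07). It was -1.89 ± 0.24 for ANGPTL4 (adjusted p = 4.16e-06), -1.01 ± 0.11 for ADM (adjusted p = 9.83e-07) and -0.93 ± 0.096 for VEGFA (adjusted p = 3.64e-07). All 5 stayed called when any 1 of the 10 arrays was left out.

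Against shControl cells, all 5 responses had a negative difference in shCDK8 cells and 4 of the 5 were called smaller (2.45% of all genes were called lower). The response of ANKRD37 was lower by 2.25 on the log2 scale, which is the widest gap of the 5. HILPDA was next with -1.44 (adjusted p = 3.36e-05), then ANGPTL4 with -1.01 (adjusted p = 0.0061) and ADM with -0.58 (adjusted p = 0.00163). The difference for VEGFA was -0.27, with a 95% interval from -0.47 to -0.073, and was not called (adjusted p = 0.0688). This comparison shares the hypoxic shControl arrays with the choice of the genes, and the genes were known from work on CDK8, so it is not independent of either.

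In shCDK19 cells the response of VEGFA was larger than in shControl cells by 0.66 (adjusted p = 0.000372, limma) and that of ADM by 0.44 (adjusted p = 0.0444), and 1.52% of all genes were called higher. The differences for ANGPTL4 (0.88, adjusted p = 0.0501), ANKRD37 (0.55, adjusted p = 0.0821) and HILPDA (0.45, adjusted p = 0.244) had the same sign and were not called. That of HILPDA was 0.123 without hypoxic shControl replicate 1 and 0.769 without replicate 2. The count rested on single arrays, through genes other than VEGFA. It was 1, VEGFA alone, without normal growth shControl replicate 1 or 3 or normal growth shCDK19 replicate 2 or 3. Leaving out a hypoxic array leaves 1 in its group, and the count then moved both up and down.

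Within the hypoxia experiment itself, all 5 genes were lower in shCDK8 than in shControl cells, where 2.49% of all genes were called lower. ANKRD37 differed most, 5.47-fold (-2.45 ± 0.081 on the log2 scale, SE; adjusted p = 0.00205, limma). ADM was 2.92-fold lower (adjusted p = 0.00421), HILPDA 2.67-fold (adjusted p = 0.0361), ANGPTL4 2.58-fold (adjusted p = 0.00547) and VEGFA 1.60-fold (adjusted p = 0.0273). In all 5 the 2 shCDK8 arrays lay below both shControl arrays, which was so for 28.2% of all genes. The choice of genes used the same shControl arrays. Without the moderation of the spread over genes, HILPDA (adjusted p = 0.131) and VEGFA (adjusted p = 0.0786) lost their calls. In that fit 334 of all genes were called in either direction, in place of 1343. Calls among the 5 and over all genes depended on single arrays, and leaving 1 out leaves 1 in its group, so only sizes are given. The differences then stayed between -2.46 and -2.44 for ANKRD37, -1.74 and -1.09 for HILPDA, and -0.78 and -0.58 for VEGFA. None of the 5 changed sign.

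Set against shCDK19 cells in hypoxia, shCDK8 cells were again lower for all 5 genes (5.09% of all genes were called lower). ANKRD37 was 7.96-fold lower (adjusted p = 0.00145, limma), HILPDA 3.77-fold (adjusted p = 0.0148), ANGPTL4 3.15-fold (adjusted p = 0.0033), ADM 3.15-fold (adjusted p = 0.00331) and VEGFA 2.13-fold (adjusted p = 0.00884). Leaving out any 1 of the 4 arrays leaves 1 in its group, and calls then fell away among the 5 and over nearly all genes. The differences without 1 array stayed between -3.06 and -2.93 for ANKRD37 and between -1.13 and -1.06 for VEGFA.

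Between shCDK19 and shControl cells in hypoxia, 0 of the 5 genes were called by limma, as were only 0.228% of all genes. An unadjusted p under 0.05 was found for 3 of the 5. The share of all genes at that limit is not given here, so this count is no result about the 5. The shCDK19 arrays were nevertheless above both shControl arrays for all 5, which was so for 17.9% of all genes. The difference was 0.54 for ANKRD37 (95% interval 0.33 to 0.75 on the log2 scale, adjusted p = 0.115), 0.50 for HILPDA (-0.096 to 1.09, adjusted p = 0.435) and 0.41 for VEGFA (0.16 to 0.66, adjusted p = 0.217). For ANGPTL4 it was 0.29 (0.087 to 0.49, adjusted p = 0.249) and for ADM 0.11 (-0.096 to 0.31, adjusted p = 0.588). The intervals of ANKRD37, VEGFA and ANGPTL4 leave out 0, and those of HILPDA and ADM do not. The difference of HILPDA was 0.175 without hypoxic shControl replicate 1 and 0.821 without replicate 2. In a fit of all 35 arrays 3 of the 5 were called higher, but the calls over all genes then rose from 42 to 2641.

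In normal growth the knockdown lines differed from shControl cells in the secreted factors ADM and VEGFA. ADM was lower by 0.97 ± 0.056 on the log2 scale in shCDK8 cells (SE; adjusted p = 2.15e-05, limma) and VEGFA by 0.41 ± 0.052 (adjusted p = 0.00103), the 2 of 5 called in a contrast where 13.5% of all genes were called lower. In shCDK19 cells ADM was lower by 0.33 (adjusted p = 0.0124) and VEGFA by 0.25 (adjusted p = 0.0299), where 3.4% of genes were called lower, and 0 of these calls were left without shControl replicate 1 or 3 or shCDK19 replicate 2, and 1 without any other single array. ANGPTL4 differed by -0.59 in shCDK19 cells (adjusted p = 0.105) and by -0.36 in shCDK8 cells (adjusted p = 0.21). ANKRD37 differed by -0.20 and HILPDA by 0.022 in shCDK8 cells, each smaller than the spread of its replicates. ADM was the gene called between the knockdown lines, 0.64 lower in shCDK8 cells (adjusted p = 0.000171), where 13.2% of all genes were called lower. The lower level of ADM in hypoxic shCDK8 cells thus had a counterpart of -0.97 without hypoxia, whereas that of ANKRD37 and HILPDA had none that was called.

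**Figure D3:**
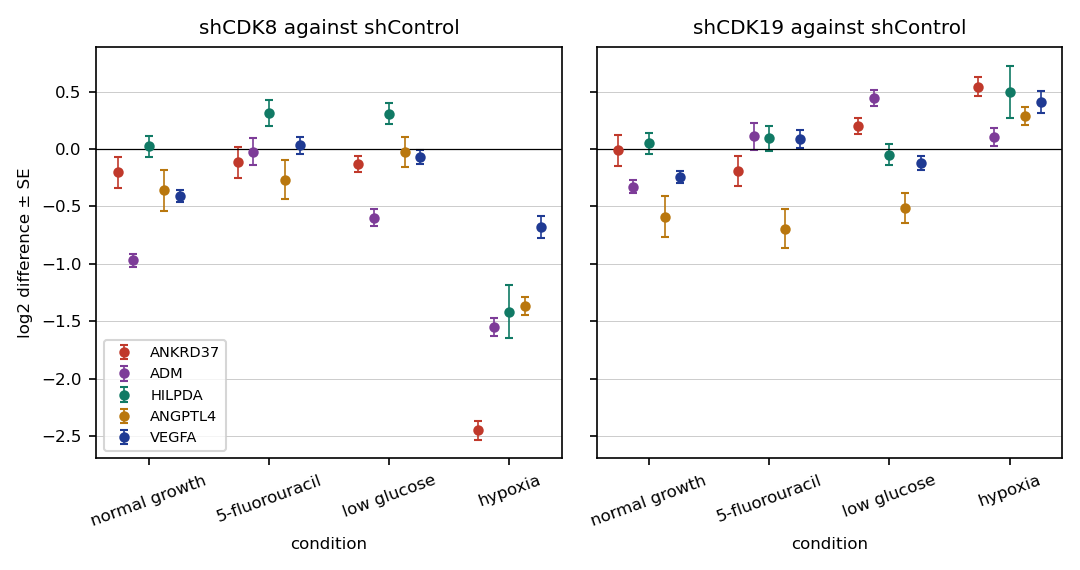
Log2 difference from shControl cells (vertical axis) with its standard error for the 5 genes (colour) in 4 conditions (horizontal axis), on the left for shCDK8 and on the right for shCDK19 cells. All 5 genes are below 0 in hypoxic shCDK8 cells, from -2.45 for ANKRD37 to -0.68 for VEGFA, and no such shift of all 5 is seen in the other conditions.

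Low glucose medium moved the 5 genes in different directions. In shControl cells the log2 signal of VEGFA was 10.44, 10.58 and 10.40 in high and 11.19, 11.17 and 11.23 in low glucose, a rise of 0.72 ± 0.060 (SE; adjusted p = 1.33e-05, limma). The groups did not overlap. ADM went the other way, from 10.52, 10.43 and 10.38 in high to 9.59, 9.67 and 9.44 in low glucose, and fell by 0.88 ± 0.070 (adjusted p = 1.03e-05). HILPDA also fell, by 0.71 ± 0.092 (adjusted p = 0.000231). ANGPTL4 (0.19, adjusted p = 0.319) and ANKRD37 (0.13, adjusted p = 0.196) did not pass the test, and 31.2% of all genes were called in either direction.

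In low glucose ADM was called in both knockdown lines, in opposite directions. Its log2 signal was 9.01, 8.88 and 9.02 in shCDK8 cells and 10.08, 9.93 and 10.02 in shCDK19 cells, on opposite sides of the shControl arrays. The difference from shControl was -0.60 ± 0.070 in shCDK8 cells (SE; adjusted p = 0.000185, limma) and 0.44 ± 0.070 in shCDK19 cells (adjusted p = 0.00166). HILPDA was the one gene called higher in shCDK8 cells, by 0.31 (adjusted p = 0.0373), with 8.91, 8.77 and 8.81 against 8.46, 8.61 and 8.50 in shControl cells, although that call was lost in a fit of all 35 arrays (adjusted p = 0.0814) and without moderation (adjusted p = 0.0637), and without any 1 array other than shControl replicate 2. ANGPTL4 was lower by 0.52 in shCDK19 cells (adjusted p = 0.0186), and without shControl replicate 2 only 1 of the 2 calls in that line was left. These are 2 of 5 genes called in each line, where 22.3% of all genes were called in shCDK8 and 19.9% in shCDK19 cells. VEGFA, the gene that low glucose raised, was within 0.13 of shControl in both knockdown lines and not called in either.

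The direct comparison of the knockdown lines in low glucose split the genes. ADM was 1.04 lower in shCDK8 than in shCDK19 cells (log2; adjusted p = 4.15e-06, limma) and ANKRD37 0.33 lower (adjusted p = 0.00581). ANGPTL4 was 0.49 higher (adjusted p = 0.0184) and HILPDA 0.36 higher (adjusted p = 0.0169), and 26% of all genes were called. In hypoxia the same comparison had put all 5 lower in shCDK8 cells. Without shCDK8 replicate 1 only 2 of these 4 calls were left.

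After 5-fluorouracil, 0 of the 5 genes were called by limma in either knockdown line or between them. In each of the 3 comparisons 1 of the 5 had an unadjusted p under 0.05, a count given without its share over all genes. Of all genes, 3.5% were called in shCDK8 and 0.837% in shCDK19 cells against shControl, and 5.14% between the lines. ANGPTL4 came nearest, with 7.88 and 7.89 in shCDK19 cells against 8.69 and 8.47 in shControl cells, a difference of -0.69 ± 0.17 (SE; adjusted p = 0.159). ANGPTL4 was also the gene called between 5-fluorouracil and DMSO in shControl cells, from 7.60 and 8.10 to 8.69 and 8.47, a rise of 0.73 ± 0.17 (adjusted p = 0.0488, limma) in a contrast where 11.5% of all genes were called. That call was lost without the moderation of the spread (0 of 5 called), and without DMSO replicate 1 or either 5-fluorouracil array. The 5 genes thus shared no direction after the drug: the other 4 differed from DMSO by -0.32 (HILPDA) to 0.32 (ANKRD37), with no call.

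The other genes of the HIF program came from a list of 30 measured targets without the 5 genes described. In shControl cells 29 of the 30 were called higher in hypoxia, with a median of 1.21 against 0.056 over all genes, where 21.1% of all genes were called higher. SLC2A3 (2.76) and HK2 (2.55), a glucose transporter and the first enzyme of glycolysis, INSIG2 (2.45), which retains the sterol sensor in the endoplasmic reticulum, and ALDOC (2.41), an aldolase, differed most. In hypoxic shCDK8 cells 8 of the 30 were called lower and 1 higher than in shControl cells, with a median of -0.45 against -0.071 over all genes, of which 2.49% were called lower and 4.81% higher. The lower ones included DDIT4 (-1.25, adjusted p = 0.00576, limma), an inhibitor of mTORC1, HK2 (-1.23, adjusted p = 0.00812) and STC2 (-1.05, adjusted p = 0.0406), a secreted glycoprotein. SLC2A1, the main glucose transporter, was the one higher (0.87, adjusted p = 0.0112). Its rise in hypoxia was nevertheless smaller in shCDK8 than in shCDK19 cells, 0.18 against 0.84 (difference -0.66, adjusted p = 8.92e-07, limma). Between hypoxic shCDK19 and shControl cells 0 of the 30 were called, where only 0.228% of all genes were. There 5 of the 30 had an unadjusted p under 0.05, and the share of all genes at that limit is not given.

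The responses of the knockdown lines ordered the whole list. The difference was negative for 23 of the 30 other targets. Of the 30, 15 were called as responding less in shCDK8 than in shCDK19 cells, where 4.72% of all genes were called lower, and 1, CA12, a membrane carbonic anhydrase, more (0.45, adjusted p = 0.0407, limma), with a median difference of -0.40 against 0.0025 over all genes. Among all 35 targets ANKRD37, ANGPTL4 and HILPDA held the 3 lowest differences, while ADM ranked number 9 from the lowest and VEGFA number 11. INSIG2 (-1.48), BHLHE40 (-1.47), a transcriptional repressor, and DDIT4 (-1.43) came next after the first 3. Other targets showed no called difference between the lines: PDK1 (0.23, adjusted p = 0.375), which restrains pyruvate dehydrogenase, BNIP3 (0.089, adjusted p = 0.866), which marks mitochondria for removal, and LDHA (0.047, adjusted p = 0.866), the lactate dehydrogenase subunit. PDK1 rose by 2.13 in shCDK8 and by 1.90 in shCDK19 cells. NDRG1, with a rise of 1.92 in shCDK19 cells, rose by 1.32 in shCDK8 cells, a called difference of -0.60 (adjusted p = 0.00419, limma).

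**Figure D4:**
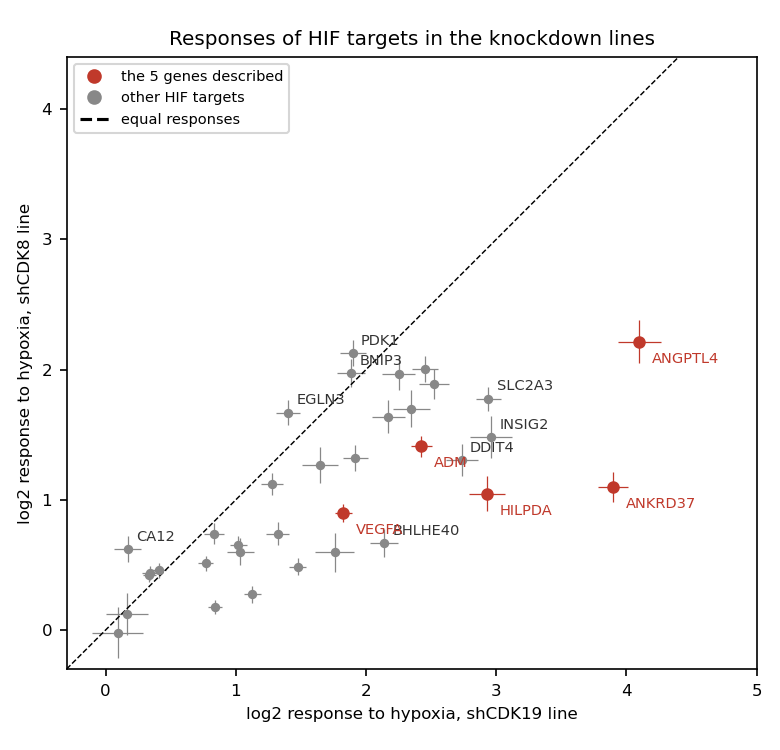
Log2 response to hypoxia in shCDK19 cells (horizontal axis) and shCDK8 cells (vertical axis) of the 5 genes described (red) and the 30 other HIF targets (grey), with standard errors; the dashed line marks equal responses. ANKRD37, HILPDA and ANGPTL4 lie farthest below the line, with differences of -2.80, -1.88 and -1.89, while PDK1, BNIP3 and EGLN3 lie on or above it.

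Among the 12 measured HIF subunits and oxygen sensors, 2 were called in hypoxic shCDK8 against shControl cells, both lower, as were 2.49% of all genes. EPAS1, the alternative alpha subunit HIF2A, was lower by 1.19 on the log2 scale (adjusted p = 0.00812, limma), and CITED2, which competes with HIF1A for its coactivators, by 0.86 (adjusted p = 0.00971). EPAS1 was lower by 1.18 in normal growth as well (adjusted p = 3.7e-06), and its hypoxia response differed between the lines by -0.0016. HIF1A differed by 0.24 (adjusted p = 0.425) and ARNT by -0.33 (adjusted p = 0.103) in hypoxic shCDK8 cells. These are transcript levels, while HIF1A is regulated by oxygen mainly as a protein.

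The ligands and receptors that work beside VEGFA and ADM numbered 15 measured genes, of which 0 were called in hypoxic shCDK8 or shCDK19 against shControl cells. Of all genes, 7.3% and 0.228% were called in these contrasts, so few calls among 15 genes would be found at those shares. NRP2, a coreceptor, came nearest in shCDK8 cells (0.82, adjusted p = 0.0587, limma), and VEGFC, the growth factor of lymph vessels, differed by -0.43 (adjusted p = 0.125). In shCDK8 cells 3 of the 15, NRP2, VEGFB and VEGFC, had an unadjusted p under 0.05, and in shCDK19 cells 0 had. The share of all genes at that limit is not given. Between the knockdown lines in hypoxia VEGFB was lower (-0.45, adjusted p = 0.0471) and NRP2 higher (0.95, adjusted p = 0.0314) in shCDK8 cells. In low glucose, where VEGFA rose in shControl cells, the coreceptor NRP1 rose by 1.63 (adjusted p = 4.71e-07) and CALCRL, the adrenomedullin receptor, fell by 0.62 (adjusted p = 0.000245).

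Around HILPDA and ANGPTL4, 19 genes of lipid droplets and triglyceride lipases were measured, and 2 were called lower in hypoxic shCDK8 than in shControl cells, beside 2.49% of all genes: LIPG, the endothelial lipase (-1.42, adjusted p = 0.0256, limma), and MGLL, the monoglyceride lipase (-0.61, adjusted p = 0.0292). PNPLA2, which codes for the lipase that HILPDA inhibits, differed by -0.39 (adjusted p = 0.105). Of 16 PPAR receptors and targets 2 were called higher, beside 4.81% of all genes, the receptor PPARG (2.35, adjusted p = 0.00388) and CPT2, an enzyme of fatty acid import into mitochondria (0.69, adjusted p = 0.0364). PPARG was higher in shCDK8 cells in normal growth too, by 2.54. Set against hypoxic shCDK19 cells, the receptor PPARG was higher in shCDK8 cells (1.42, adjusted p = 0.00759, limma) and the receptor PPARD lower (-0.96, adjusted p = 0.0128). The receptor PPARA was not called there (0.42, adjusted p = 0.0873). The part of these receptors in the level of ANGPTL4, a PPAR target, was not tested. Of the 6 other genes of the Mediator kinase module, 0 were called in hypoxic shCDK8 against shControl cells, where 7.3% of all genes were called. CDK19 differed by 0.49 (adjusted p = 0.113, limma), and 3 of the 6, CDK19, MED13L and MED13, had an unadjusted p under 0.05. That count too is given without its share over all genes.

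The genes most like each of the 5 over the 14 group means were taken from the 15467 other genes with a group mean of at least 6 (log2), as a description in which the hypoxia groups weigh heavily. Nearest to ANKRD37 was CIB1, with a Pearson r of 0.967 over the 14 groups, and nearest to ADM was ERO1A with 0.947, to HILPDA the noncoding LINC01011 with 0.982, to ANGPTL4 CLK3 with 0.969 and to VEGFA DDIT4 with 0.977. Over the 11 groups without hypoxia VEGFA kept an r of 0.957 with DDIT4 and 0.955 with STC2, while ANKRD37 had 0.732 with CIB1. The 5 genes were less alike among themselves: ANKRD37 and HILPDA had an r of 0.912 over 14 groups and -0.28 over the 11 without hypoxia. ADM and VEGFA had 0.58 and -0.29. The 3 pairs among ANKRD37, ANGPTL4 and VEGFA had a high r over the 11 groups too: ANGPTL4 and VEGFA had 0.899 and 0.884, ANKRD37 and ANGPTL4 0.930 and 0.805, and ANKRD37 and VEGFA 0.810 and 0.804. For each of these genes every group of the glucose experiment, high glucose included, lay above every other group outside hypoxia. The lowest glucose group of ANKRD37 was at 8.13, and the highest other group at 7.92. The r over the 11 groups thus also holds any offset between experiments or media, whose part was not tested. These arrays measure RNA from whole cultures, in which fewer cells with a transcript and less transcript per cell cannot be told apart.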

How the data were processed

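Total RNA was hybridised to Affymetrix HuGene 1.0 ST arrays, 1 sample per array, per the labels. The deposited values are on the log2 scale, judged from their range, with a floor of 4.32 and a ceiling of 14.29 shared by all 35 arrays. The authors made these log2 values with Partek, per the submitters' processing notes, and their test was a one-way analysis of variance, per the series' design text. How they were normalized, and with which build, is not given in the sources used here. A floor shortens differences of dim genes, and a shared distribution can hide a change of most genes.

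Of 32321 rows, 19158 had 1 gene symbol, 1388 several and 11775 none listed, which gave 18404 genes after the row with the highest mean was kept for the 637 genes with over 1 row. Comparisons within an experiment were fitted on that experiment's arrays, and those of hypoxia with normal growth on all 35 arrays, in R 4.3.3 with limma 3.58.1 (lmFit, then eBayes) on values read with version 1.17.8 of the data.table package. Tests are two-sided, adjusted by the Benjamini-Hochberg method over all 18404 genes, and a gene was called at an adjusted p under 0.05. The fit was run on simulated data for a single contrast, hypoxic shCDK8 against shControl cells, to check its mean estimates. The fits of all 35 arrays were not simulated. Replicate numbers come from the titles. Nothing in the labels ties replicates to separate cultures, so p-values measure only how these arrays vary, possibly for technical reasons, and 2 or 3 arrays per group limit the precision.

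The 5 genes and the 10 gene lists were chosen with earlier results of these data known. Genes named from a list are those with the largest called differences, up to 4, or else the 2 with the smallest p, and some others are named after their values were seen, as PDK1, NDRG1, LDHA, BNIP3, EGLN3, VEGFC, PNPLA2, PPARA, PPARD, HIF1A and ARNT. EGLN3 and PLIN2 stand in 2 lists. The concentration of 5-fluorouracil is not used here, because its unit could not be checked. Alternatives were another fit scope, array medians subtracted, a replicate block, a filter on dim genes, no moderation, a trended robust spread, the mean of a gene's rows, and each array left out in turn.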

Additional observations from a re-analysis of the deposited data

Results flagged for a closer look

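The size of the hypoxia response differed between lines by a test of the difference itself (limma, fit of all 35 arrays, adjusted over all genes) in 11 cases. Between shCDK8 and shCDK19 cells it differed for all 5 genes, lower in shCDK8 cells by a log2 difference of -2.80 for ANKRD37, -1.89 for ANGPTL4, -1.88 for HILPDA, -1.01 for ADM and -0.93 for VEGFA. Between shCDK8 and shControl cells it differed for ANKRD37 (-2.25), HILPDA (-1.44), ANGPTL4 (-1.01) and ADM (-0.58). Between shCDK19 and shControl cells it was larger in shCDK19 cells for VEGFA (0.66) and ADM (0.44). In each case all hypoxic arrays of a line lay above all of its normal growth arrays. The comparisons with shControl cells share the arrays by which the genes were chosen.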

How the results depend on the processing

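Counts among the 5 genes were computed at 255 other settings, of which 206 left them within 1.5 times. They were counts of calls, except for hypoxia against normal growth in shControl cells, where genes at least 2-fold higher were counted. In hypoxia comparisons 45 of 45 values of the 5 genes kept their sign at every setting. The choice of the genes set the sign of those in that shControl contrast. Other hypoxia comparisons with shControl cells share its hypoxic arrays. Of 1275 values of single genes, 76 lost and 26 gained a call, and 0 called values changed sign.

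Replicate numbers showed no steady pairing of the arrays. Deviations of same-numbered arrays correlated between -0.50 and 0.41 in hypoxia, -0.62 and 0.37 in normal growth and -0.17 and 0.31 in the glucose experiment. Differently numbered arrays of normal growth correlated between -0.67 and 0.73. With 2 arrays per group, as in hypoxia, the deviations of a group mirror each other, so the check decides little there. With the replicate block, 3 of 5 genes were called in shCDK8 against shControl cells in hypoxia (HILPDA adjusted p = 0.0876, VEGFA 0.0806), 1 in shCDK8 cells in low glucose, 1 in shCDK19 cells in normal growth, 1 in the response of shCDK19 against shControl cells, and 0 for 5-fluorouracil against DMSO.

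Without moderation 3 were called in hypoxic shCDK8 against shControl cells, 1 in shCDK8 cells in low glucose and 0 for 5-fluorouracil against DMSO. In 1 fit of all 35 arrays, 3 were called in hypoxic shCDK19 against shControl cells, 1 in shCDK19 cells after 5-fluorouracil, 1 in shCDK8 cells in low glucose and 2 between the knockdown lines in normal growth. A trended robust spread gave 1 in hypoxic shCDK19 cells and 1 after 5-fluorouracil. Array medians subtracted gave 1 in shCDK19 cells in normal growth and 1 in the response of shCDK19 cells, as did a fit of the normal growth and hypoxia arrays for that response. The cause was not tested.

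With 1 array left out, the count ranged from 0 to 5 in hypoxia for shCDK8 against shControl cells, from 0 to 3 for shCDK19 against shControl and from 0 to 0 for shCDK8 against shCDK19. A lone array was then assumed to vary like the other groups. The calls over all genes moved at these settings as well, so the counts are no result about the 5 genes alone. The count ranged from 0 to 1 in shCDK19 and from 1 to 2 between the lines in normal growth, from 1 to 2, 1 to 3 and 2 to 4 in low glucose for shCDK8, shCDK19 and both lines, and from 0 to 1 for 5-fluorouracil against DMSO. It ranged from 1 to 5 for the response of shCDK19 cells, from 4 to 5 for that of shCDK8 cells against shControl, and stayed at 5 for the knockdown lines' responses against each other.

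Counts over all genes moved more. In hypoxia shCDK8 against shControl cells gave 1343 genes, 6392 in the fit of all arrays, 312 with the block and 334 without moderation. The knockdown lines against each other gave 2273, 5925, 764 and 765, and shCDK19 against shControl cells gave 42, 2641, 1 and 3. After 5-fluorouracil the same settings gave 1713, 355 and 238 in shCDK8 cells in place of 645, 1067, 53 and 20 in shCDK19 cells in place of 154, and 2221, 479 and 287 between the lines in place of 946. The responses of shCDK8 cells against shControl gave 2118 and, on the normal growth and hypoxia arrays, 978, and those of shCDK19 cells gave 383 and 60. The background shares therefore hold for the fits described and not for others. Array precision was limited by 2 arrays per group in hypoxia.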
